A study of Homo sapiens with 14 samples.

Results

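GSK591 and MS023, 2 inhibitors of protein arginine methyltransferases, were compared directly after 15 min in A549 cells, a human lung adenocarcinoma line. The members were the 2 libraries of cells given 1 µM GSK591 and the 2 libraries of cells given 1 µM MS023, chosen by treatment and time, which is 4 of the 14 libraries of the study. None of these 4 received dexamethasone (Dex, a synthetic glucocorticoid), and every group of the study, untreated cells included, carried 0.01% DMSO as vehicle. The other groups, of 2 libraries each, were untreated cells that also carry the 15 min label, each inhibitor with 100 nM Dex for 15 min, and each inhibitor alone for 3 h. Nascent transcription was measured by PRO-seq, in which engaged RNA polymerases of permeabilized cells run on with a labelled nucleotide and the labelled RNA is sequenced. Nothing in the labels says that replicates came from separate cultures, so p-values here measure the spread between these libraries, which may be technical. All groups are 1 cell line.

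GSK591 inhibits PRMT5, the main type II enzyme, which places symmetric dimethylarginine on Sm proteins of the spliceosome, on histones and on many RNA-binding proteins. MS023 inhibits the type I enzymes, among them PRMT1, CARM1 and PRMT6, which place asymmetric dimethylarginine, often on the same arginine-rich substrates. The comparison asks which genes were transcribed at different levels between the inhibitors, given for the same short time at the same dose. Methylation was not measured in these libraries, so the degree of inhibition by either compound is not known here.

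Total counts were 8607006 and 7963227 in the GSK591 libraries and 8904573 and 5768312 in the MS023 libraries, within a range of 5768312 to 9606938 over the study. Of 20 markers of A549 and lung adenocarcinoma epithelium, 18 passed the filter on low counts, and their summed level was 2060 to 2340 CPM (counts scaled to a common library size) with GSK591 and 2130 to 2220 with MS023. None of 6 endothelial, 2 of 9 fibroblast and 4 of 9 leukocyte markers passed the filter. KDR of endothelium and CD3E of leukocytes were at 0 in all 4 libraries, but other leukocyte markers were not. The leukocyte markers summed to 46.5 and 47.5 CPM with GSK591 and 50.5 and 53.7 with MS023. Among them CSF1R and NKG7 had means of 24.52 and 15.44 CPM over the 4 libraries. Mitochondrially encoded genes took 48.6% and 46.9% of counts with GSK591 and 44.5% and 39.8% with MS023, against 54.0% and 53.8% in untreated cells. The groups did not overlap, but an exact permutation test of 2 against 2 libraries cannot give a two-sided p below 0.333, which is the value found.

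After 15 min, 239 of 21910 genes tested differed between the inhibitors (1.09%) at an adjusted p under 0.05 by edgeR's quasi-likelihood test, and 222 of them were higher with GSK591 (1.01%) while 17 were lower (0.0776%). The median log2 difference, GSK591 minus MS023, was 0.73 over the genes called higher, from 0.40 to 2.71, and 60 of them differed by at least 1. Over the genes called lower it was -0.62, from -0.42 to -2.57, and over all genes tested 0.01. GSK591 and MS023 libraries did not overlap at 221 of the 222 genes and at all 17, where 21% and 18.9% of all genes tested had non-overlapping groups in the same directions. The number of calls rested on single libraries. Without replicate 1 of MS023 no gene was called by edgeR, with 1523 genes at an unadjusted p under 0.05, and without replicate 1 of GSK591 14 genes were called. Without replicate 2 of GSK591 the count was 189, and without replicate 2 of MS023 it was 288. The sign of the difference was the same at all 239 genes in each of these 4 fits. Where the groups do not overlap this was fixed in advance, so nothing is read from it. MS023 replicate 1 was the lowest of the 4 libraries at 196 of the 222 genes, and below MS023 replicate 2 at 50.4% of all genes tested. DESeq2 called 83 genes, all of them higher with GSK591, and scaling by library size alone left 29.

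**Figure D1:**
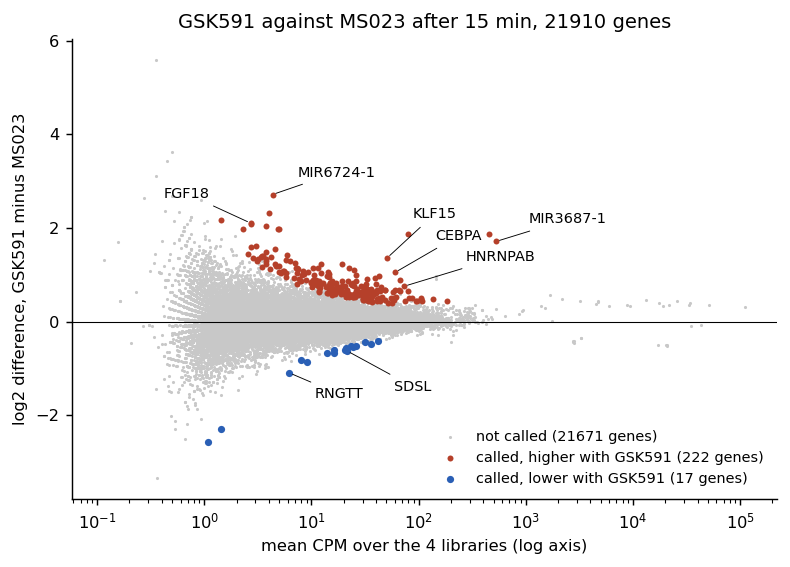
Log2 difference between the inhibitors (GSK591 minus MS023, vertical axis) against mean CPM over the 4 libraries (horizontal log axis) for 21910 genes. The 222 red points lie above 0 over most of the range of levels, the 17 blue points below it.

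The 8 calls of smallest p among genes with at least 20 CPM included transcription factors and their partners. KLF15, a Krüppel-like transcription factor of metabolic genes, stood at 87.2 and 57.5 CPM in the GSK591 libraries and at 18.2 and 40.2 in the MS023 libraries. Untreated cells had 26.4 and 30.7 CPM, so both GSK591 libraries lay above them and the MS023 libraries on either side. The log2 difference was 1.36 ± 0.19 (SE; edgeR adjusted p 8.0e-05, n = 2 and 2, with an adjusted p of 0.17 without MS023 replicate 1 and 0.053 with DESeq2). CEBPA, which encodes the differentiation factor C/EBPα, had 87.7 and 74.5 CPM with GSK591 and 30.2 and 49.5 with MS023, around 46.1 and 43.1 in untreated cells. Here again the GSK591 libraries were the high ones, by 1.05 ± 0.14 (edgeR adjusted p 5.1e-05). CITED4, whose product binds the coactivators CBP and p300, had 39.7 and 28.2 CPM with GSK591 and 12.7 and 19.7 with MS023, a log2 difference of 1.11 ± 0.16 (edgeR adjusted p 9.0e-05). Groups that do not overlap were a condition for naming these genes, and the MS023 replicates lay as far apart as 18.2 and 40.2 CPM at KLF15.

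Enzymes and an RNA-binding protein were also among these 8 genes. CRLS1, the cardiolipin synthase of mitochondria, had 36.1 and 25.3 CPM with GSK591 and 11.8 and 16.7 with MS023, and 14.5 and 14.6 in untreated cells. It differed by 1.14 ± 0.16 (edgeR adjusted p 9.0e-05), with the GSK591 libraries the highest of these 6. HNRNPAB, an abundant heterogeneous nuclear ribonucleoprotein, had 102 and 81.1 CPM with GSK591 against 50.9 and 58.2 with MS023, and differed by 0.75 ± 0.11 (edgeR adjusted p 0.00015, and 0.056 with scaling by library size alone). HAPSTR1, a partner of the ubiquitin ligase HUWE1 in stress signalling, differed by 0.90 ± 0.14, from 103 and 70.2 CPM with GSK591 to 38.5 and 55.8 with MS023. PCBD2, a dimerization cofactor of HNF1 with dehydratase activity, stood at 30.5 and 26.6 CPM with GSK591 and at 16 and 15.2 with MS023, a difference of 0.87 ± 0.14. SPDYA, an activator of cyclin-dependent kinases, had 37.8 and 31.2 CPM against 17.3 and 17.3 and differed by 1.00 ± 0.14. At PCBD2 and SPDYA the MS023 replicates nearly coincided, and both lay below the untreated libraries, which had 20.9 and 22.9 CPM at PCBD2 and 25.4 and 18.4 at SPDYA. All 4 of these genes, HNRNPAB, HAPSTR1, PCBD2 and SPDYA, share exonic positions with another annotated gene, for SPDYA with PPP1CB and TRMT61B, and reads there cannot be told apart because the strand setting of the counting is not given in the sources used here. The same holds for CEBPA, and among genes named below for SRXN1, FTH1, EFNB2, PHLDA3, CEBPB, FOXA2, FOXF2, ZNF664 and ZNF394 and for others marked where they appear.

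**Figure D2:**
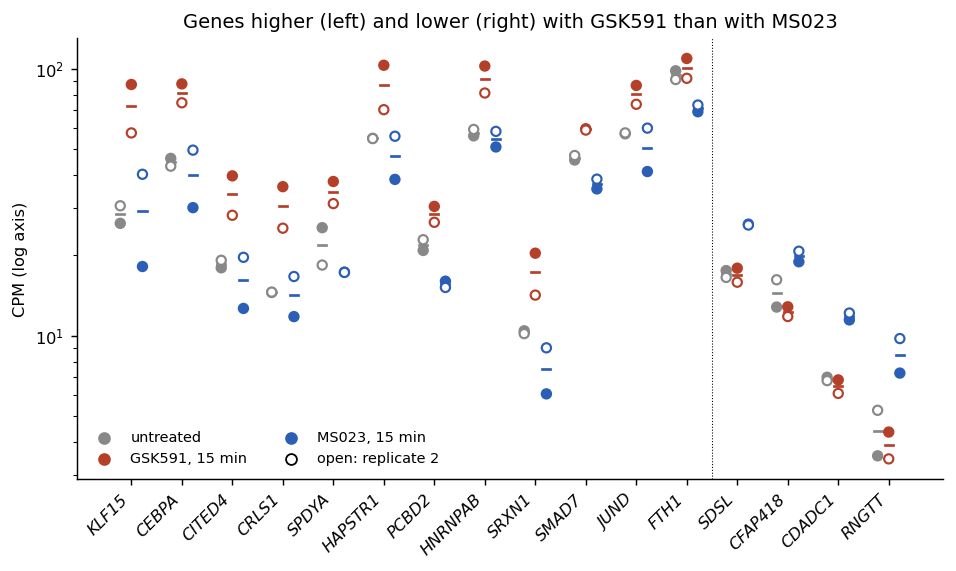
CPM (vertical log axis) of 12 genes called higher and, right of the dotted line, 4 called lower with GSK591, in untreated cells (grey), GSK591 (red) and MS023 (blue) libraries. Filled points are replicate 1, open points replicate 2, and bars their mean. At most of the 12 genes MS023 replicate 1 is the lowest point, as at KLF15 with 18.2 CPM.

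Promoter sequences from RefSeq (GRCh38.p14) are shown for these genes because GC content differed between the called genes and all genes tested. Each run holds 250 bases before to 50 bases after the annotated start, 5′ to 3′ on the gene's strand, and capitals mark GC boxes (GGGCGG or its complement CCGCCC). The first 4 genes were higher with GSK591 and had the smallest p at 20 CPM or more, and RNGTT and CDADC1 had the largest differences among the named genes that were lower.

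CEBPA (chr19:33302485-33302784, minus strand): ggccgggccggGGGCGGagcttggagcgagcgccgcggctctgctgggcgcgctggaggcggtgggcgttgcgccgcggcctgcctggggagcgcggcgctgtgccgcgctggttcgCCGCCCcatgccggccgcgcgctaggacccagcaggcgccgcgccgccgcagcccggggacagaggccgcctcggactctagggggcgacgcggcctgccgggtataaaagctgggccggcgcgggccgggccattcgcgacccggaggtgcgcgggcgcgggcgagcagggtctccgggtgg
KLF15 (chr3:126357359-126357658, minus strand): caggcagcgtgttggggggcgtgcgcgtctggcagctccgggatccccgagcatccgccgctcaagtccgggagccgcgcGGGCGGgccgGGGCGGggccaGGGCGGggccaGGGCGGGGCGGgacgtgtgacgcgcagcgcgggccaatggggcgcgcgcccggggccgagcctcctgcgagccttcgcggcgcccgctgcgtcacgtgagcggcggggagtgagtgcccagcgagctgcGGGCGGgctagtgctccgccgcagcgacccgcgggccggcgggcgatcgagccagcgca
CITED4 (chr1:40862314-40862613, minus strand): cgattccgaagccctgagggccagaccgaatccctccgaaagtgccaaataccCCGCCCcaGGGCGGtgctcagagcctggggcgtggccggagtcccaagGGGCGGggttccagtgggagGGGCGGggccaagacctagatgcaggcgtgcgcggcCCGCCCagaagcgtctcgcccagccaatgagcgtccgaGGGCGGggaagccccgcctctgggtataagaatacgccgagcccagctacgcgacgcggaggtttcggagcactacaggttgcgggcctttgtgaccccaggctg
CRLS1 (chr20:6006999-6007298, plus strand): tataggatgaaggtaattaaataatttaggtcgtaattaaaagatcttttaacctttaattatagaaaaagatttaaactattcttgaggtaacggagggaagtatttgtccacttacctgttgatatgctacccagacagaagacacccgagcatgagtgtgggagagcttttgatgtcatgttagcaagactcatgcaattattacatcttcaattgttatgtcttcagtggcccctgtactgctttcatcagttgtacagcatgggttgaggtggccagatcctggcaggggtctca
RNGTT (chr6:88963569-88963868, minus strand): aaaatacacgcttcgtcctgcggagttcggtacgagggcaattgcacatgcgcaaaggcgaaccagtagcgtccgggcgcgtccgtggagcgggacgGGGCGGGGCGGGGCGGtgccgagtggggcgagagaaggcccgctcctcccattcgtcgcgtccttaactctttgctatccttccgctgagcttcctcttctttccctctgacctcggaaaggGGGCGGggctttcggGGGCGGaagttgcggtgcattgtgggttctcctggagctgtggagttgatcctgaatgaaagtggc
CDADC1 (chr13:49247675-49247974, plus strand): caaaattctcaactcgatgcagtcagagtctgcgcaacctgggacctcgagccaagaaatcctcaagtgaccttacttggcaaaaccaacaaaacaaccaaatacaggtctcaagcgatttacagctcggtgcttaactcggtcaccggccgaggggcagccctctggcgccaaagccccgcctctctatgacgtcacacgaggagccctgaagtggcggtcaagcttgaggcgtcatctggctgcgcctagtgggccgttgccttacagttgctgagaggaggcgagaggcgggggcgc

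GC content of these windows was 80.7% at CEBPA, 80.3% at KLF15 and 68.3% at CITED4, and 62.3% at RNGTT and 57.7% at CDADC1. The RefSeq window of CRLS1 had 39.3%, but it does not hold the start of the counted gene. GENCODE 29, the annotation the count table matches, starts CRLS1 at 6006090, upstream of that window. The 39.3% therefore does not describe the promoter at that start, and CRLS1 is not read as an exception. A RefSeq window was found for 148 of the 222 genes called higher and 13093 of all genes tested. Its median GC content was 72.8% in the former and 65.0% in the latter, with a median of 35 and 25 CpG dinucleotides. A GC box on either strand was present in 87.2% of the windows of genes called higher and in 66.7% of all windows. RNGTT, which was lower with GSK591, has 5 GC boxes, and these letters are a description and not evidence of binding. The shares for a CCAAT box (CCAAT) were 38.5% and 35.6%, and for a TATA box (TATAAA) 8.8% and 6.1%. For an ETS site (CCGGAAG) they were 10.8% and 17.1%, and for an E-box (CACGTG) 5.4% and 9.7%, and none of these shares was tested. Only 9 of the 17 genes called lower had a window, with a median GC content of 61.7%.

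The first 300 bases of the longest GENCODE 29 transcript had a median GC content of 73.8% in the genes called higher, 59.3% in those called lower and 59.0% in all genes tested. Among the genes richest in GC by this measure (68.7% to 90.0%, the top of 5 bins), 144 of 4308 genes were called higher (3.34%), and in the other 4 bins between 0.350% and 0.536% were. The median log2 difference of that bin was 0.08, and in the others it lay between -0.02 and 0.02. Single-exon coding genes were called higher at 17 of 450 (3.78%), and coding genes with 9 or more exons at 79 of 8584 (0.920%). The level of the GC-richest against the GC-poorest bin, relative to untreated cells, was 0.18 and 0.05 in the GSK591 libraries and -0.02 and 0.09 in the MS023 libraries, so the groups overlapped in this measure of whole libraries. With offsets for GC content and length fitted in each library, 191 genes were called, 168 of them among the 239. The part of these values in the difference was not tested.

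**Figure D3:**
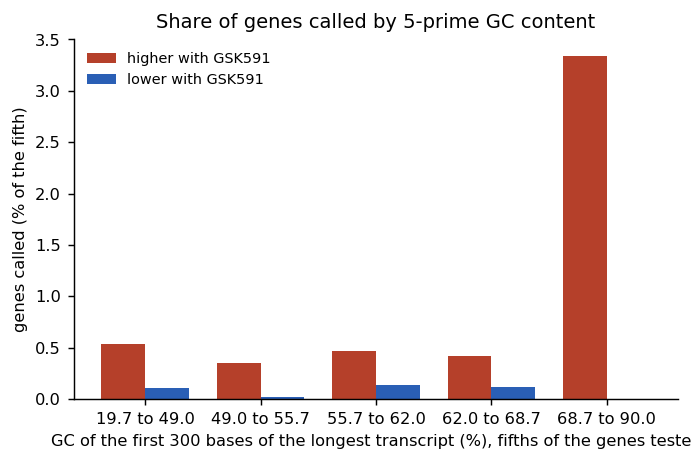
Share of the genes tested that were called higher (red) or lower (blue) with GSK591 than with MS023 (vertical axis, percent), in 5 bins of the GC content of the first 300 bases of the longest transcript (horizontal axis, percent). The bin from 68.7% to 90.0% has 3.34% of genes called higher and none called lower.

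Early-response and feedback regulators contributed further calls from the gene lists, among larger numbers of members that were not called. Of 34 immediate early genes, 2 rose with GSK591 relative to MS023, the AP-1 subunit JUND and the transcription factor KLF2, and the median of the list was 0.09, where 1.01% of all genes tested were called higher and their median was 0.01. JUND had 86.5 and 73.6 CPM with GSK591 against 41.2 and 59.9 with MS023 (0.68 ± 0.12, edgeR adjusted p 0.0011). Its relatives were not called: FOS had 36.3 and 38.03 CPM against 41.3 and 42.5, and JUN had 76.4 and 74.6 against 76.8 and 66.8. KLF2 differed by 0.52 ± 0.12. In the list of TGF-beta, BMP and Notch feedback, 2 of 23 genes were called (1.01% of all genes) and the median was 0.11. SMAD7, the inhibitor of TGF-beta receptors, had 59.6 and 58.9 CPM with GSK591 and 35.5 and 38.6 with MS023 (0.68 ± 0.11, edgeR adjusted p 0.00048). It was among the tightest differences, with untreated libraries in between at 45.5 and 47.3 CPM. The Notch-family repressor HES4 differed by 0.77 ± 0.18. With scaling by library size alone none of JUND, KLF2, SMAD7 and HES4 was called, and with DESeq2 and at equal depth KLF2 and HES4 were not. HES4 was called in only 8 of 16 alternative settings and was also lost with GC and length offsets.

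Of 5 C/EBP genes tested, a family picked after the values were seen, 3 were called higher with GSK591, CEBPA and a further pair. CEBPG (-0.05 ± 0.11) and CEBPZ (0.07 ± 0.15) were not called. CEBPB had 42.0 and 32.3 CPM against 21.1 and 27.2 (0.64 ± 0.15, edgeR adjusted p 0.022), and CEBPD 70.4 and 58.4 against 42.8 and 48.8 (0.50 ± 0.12, edgeR adjusted p 0.026). Neither CEBPB nor CEBPD was called with DESeq2 or with scaling by library size alone, nor CEBPD at equal depth. CEBPB shares exonic positions with its antisense gene CEBPB-AS1. They were the 2 genes called of 29 glucocorticoid targets tested, a list with a median of -0.05, in which 18 members lay below 0; no library here received Dex. Classical targets of the glucocorticoid receptor did not pass the test, with TSC22D3 at 23.4 and 23.4 CPM against 24.3 and 26.1, and PER1 at 27.4 and 26.1 against 25.6 and 39.2. CEBPB was also the only gene called of 24 in the integrated stress response. Families picked after the values were seen, and so given no test of their own, included the forkhead genes, of which 5 of 36 were called higher, beside 1.01% of all genes (FOXC1, FOXO3, FOXA2, FOXF2 and FOXE1, from 0.56 to 1.00). FOXA2, a pioneer factor of lung epithelium, was also the only A549 marker called. The cytokine-feedback genes SOCS1 and SOCS3 were called among 8 of their family, at 0.56 ± 0.15 and 0.45 ± 0.11.

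Of 30 targets of NRF2, the factor of the antioxidant response that is constitutively active in A549 cells, 3 were higher with GSK591 and 24 lay above 0, with a median of 0.15. Of all genes tested 1.01% were called higher and 52% lay above 0. SRXN1, which repairs oxidized peroxiredoxins, had 20.4 and 14.2 CPM with GSK591 and 6.05 and 9.01 with MS023, around 10.4 and 10.2 in untreated cells (1.23 ± 0.19, edgeR adjusted p 0.00027). The ferritin heavy chain FTH1 had 109 and 92.0 CPM against 69.0 and 73.1, and 98.2 and 91.1 in untreated cells (0.50 ± 0.11, edgeR adjusted p 0.0095). GCLM, the modifier subunit of glutathione synthesis, had 37.7 and 35.2 against 24.9 and 26.4 (0.51 ± 0.13, edgeR adjusted p 0.045), but untreated cells had 35.9 and 40.9, so at GCLM, as at FTH1, the MS023 libraries lay below both other groups. The catalytic partner GCLC was not called (0.32 ± 0.10, edgeR adjusted p 0.15), nor was NQO1, at 0.10 ± 0.12. With scaling by library size alone the list's median was 0.06 and SRXN1 was the only member called. GCLM was called in only 5 of 16 alternative settings, and was lost among others with median-of-ratios scaling, at equal depth, with GC and length offsets, with DESeq2 and without any one of the 4 libraries. Other lists gave 1 call each: the co-chaperone BAG3 of 24 heat shock genes (0.58 ± 0.15) and PHLDA3, an inhibitor of AKT, of 30 p53 targets (0.66 ± 0.13), and neither was called with scaling by library size alone, nor BAG3 with DESeq2 or at equal depth.

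Growth-factor genes of low level had some of the largest differences. FGF18, a fibroblast growth factor of lung development, had 6.00 and 2.74 CPM with GSK591 and 0.757 and 1.35 with MS023 (2.10 ± 0.41, edgeR adjusted p 0.0037). It was the only gene called of 24 in the list of FGF and EGFR ligands and feedback, where 1.01% of all genes tested were called higher. AREG, an EGFR ligand, had 7.89 and 7.27 CPM against 4.43 and 5.40 and was not called (0.64 ± 0.22, edgeR adjusted p 0.21). EFNB2, the ephrin-B2 ligand of EPH receptors, had 5.65 and 3.34 CPM against 1.08 and 1.95 (1.62 ± 0.35, edgeR adjusted p 0.0086). At FGF18 and EFNB2 GSK591 replicate 1 was the highest of the 4 libraries compared. Groups that do not overlap were a condition of the ranking that named both. PKMP1, a processed pseudogene of pyruvate kinase whose reads cannot be told apart from those of near-identical copies, had 4.95 and 8.34 CPM with GSK591 and 1.297 and 1.35 with MS023. Untreated cells had 4.62 and 4.71 CPM of PKMP1, so MS023 was the group that stood apart (GSK591 minus MS023 2.32 ± 0.37, edgeR adjusted p 0.00032). The long noncoding RNA AL158152.2 had a like order, with 3.30 and 4.17 CPM, 1.19 and 0.600, and 2.69 and 2.52 in untreated cells.

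The list of microRNA genes of the ribosomal DNA repeats had the largest median of the lists, 1.88. Of its 9 members tested, 6 were called higher with GSK591, beside 1.01% of all genes tested. The 6 are copies of MIR6724 and of MIR3687, so they are not 6 separate results. All 6 are on chromosome 21, and the 9 include MIR663AHG, a long noncoding host gene on chromosome 20 that was not called (0.48 ± 0.22). RNA polymerase I transcribes these repeats into the 45S precursor of ribosomal RNA. MIR6724-1 (chromosome 21, 8205315 to 8205406, plus strand) ends 582 bases before the RefSeq start of the 45S gene RNA45SN2, and MIR3687-1 (8208844 to 8208904) lies 2856 bases after it and before the 18S sequence. RefSeq gave a mature sequence for 2 of the 7 genes looked up, MIR6724-2 (chr21:8249515-8249537) and MIR6724-4 (chr21:8432540-8432562), with capitals for the seed (bases 2 to 8). Both hold the same letters, and counts of such copies cannot be told apart.

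hsa-miR-6724-5p: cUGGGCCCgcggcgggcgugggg

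MIR6724-1 had 10.4 and 4.65 CPM with GSK591, 0.973 and 1.35 with MS023, and 1.18 and 2.52 in untreated cells. The GSK591 libraries were the high ones, by 2.71 ± 0.40 on the log2 scale (edgeR adjusted p 0.00011). MIR6724-2 and MIR6724-3 differed by 2.05 ± 0.35 and 1.98 ± 0.33. At MIR6724-4 the groups overlapped, with 11.8 and 3.34 CPM against 0.757 and 3.45. MIR3687-1 had 1176 and 440 CPM with GSK591 and 134 and 362 with MS023, against 68.4 and 84.5 in untreated cells, so both inhibitors were above untreated cells and GSK591 was above MS023 by 1.71 ± 0.34 (edgeR adjusted p 0.0044). The replicates differed widely, and MIR3648-1 next to it overlapped between groups, at 293 and 84.4 CPM against 73.7 and 129 (0.91 ± 0.31, edgeR adjusted p 0.20). Without replicate 1 of either inhibitor none of the 9 was called, and without replicate 1 of GSK591 the list's median was 0.83, and DESeq2 called 3 of the 9. PRO-seq reads over a hairpin annotation are nascent RNA of the region and do not show a mature microRNA.

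MIR3687-1 lies inside the 45S unit, but 10 annotations of ribosomal RNA in these repeats, picked after the values were seen, were not called. All 10 had a negative difference, from -0.35 to -0.51 (edgeR adjusted p 0.31 to 0.44), where 52% of all genes tested lay above 0. They annotate copies of the same repeats, so they are not 10 separate results. RNA5-8SN2, the 5.8S sequence, had 2517 and 2209 CPM with GSK591 and 3074 and 3261 with MS023 (-0.42 ± 0.17). FP671120.3, annotated on the minus strand inside the 18S sequence of this unit, had 17450 and 15960 CPM against 25360 and 22130 (-0.51 ± 0.22), and without a known strand setting its reads cannot be told apart from 18S. The 5S genes, which RNA polymerase III transcribes from a cluster on chromosome 1, were also picked after the values were seen. All 17 tested lay above 0 (52% of all genes tested did), 8 were called higher (1.01% of all genes), and the median was 1.24. Their summed level was 91.0 and 73.2 CPM with GSK591, 30.4 and 48.6 with MS023 and 35.8 and 47.7 in untreated cells, so the MS023 libraries lay around the untreated ones and the GSK591 libraries above both. The exact permutation p for that sum was 0.333, the smallest that 2 against 2 libraries allow. The 17 copies are nearly identical and share reads, so they are not 17 separate results. Of 15 other genes tested in a mixed list of RNA polymerase III and abundant small RNA genes, none was called, and their median was 0.21. That list includes small nuclear RNAs such as RNU1-1 and RNU2-1, so it does not stand for RNA polymerase III genes alone.

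Of 29 mitochondrially encoded genes tested, 24 lay above 0 (52% of all genes tested did) with a median of 0.36, and 1 was called (1.09% of all genes). That gene was the leucine tRNA gene MT-TL1, which had 49.2 and 203 CPM with GSK591 and 41.0 and 26.6 with MS023, a difference of 1.88 ± 0.37 in which GSK591 replicate 2 stood far above the rest; without it the difference was 0.52. Leaving out that replicate or either MS023 replicate ended the edgeR call. Of the protein-coding members, MT-ND1 of complex I had 31220 and 28320 CPM against 25120 and 18800 (0.44 ± 0.21, edgeR adjusted p 0.49), whereas the groups overlapped at MT-CYB of complex III, with 36840 and 30360 against 39470 and 32020. With no filter on low counts, 13 mitochondrial genes were called. Leaving the mitochondrial genes out of the fit gave 212 calls elsewhere.

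Among the 17 genes lower with GSK591, the largest named difference was at RNGTT. RNGTT, the enzyme that caps messenger RNA, had 4.36 and 3.46 CPM with GSK591 and 7.24 and 9.76 with MS023, against 3.55 and 5.25 in untreated cells, so MS023 was the high group (-1.10 ± 0.25, edgeR adjusted p 0.016). SDSL, a serine dehydratase-like enzyme, had 17.9 and 15.9 CPM against 26.2 and 25.97, and 17.5 and 16.5 in untreated cells. The GSK591 and untreated libraries were alike there, and the difference was -0.63 ± 0.15 (edgeR adjusted p 0.018). CFAP418, a protein of photoreceptors and cilia, and CDADC1, a cytidine deaminase-like protein, differed by -0.68 ± 0.16 and -0.86 ± 0.21. TIMMDC1, an assembly factor of respiratory complex I, had 15.9 and 16.3 CPM against 22.4 and 27.5, and DPY30, a shared subunit of histone H3 lysine methyltransferase complexes, 13.5 and 12.3 against 17.2 and 22.5. Both of the latter overlap another gene. The antisense RNAs ILRUN-AS1 and AL359644.1 differed by -0.83 and -0.67 and overlap C6orf106 and GGTA1P. Among 383 zinc finger genes named ZNF, ZNF664 and ZNF579 were called higher and ZNF394 lower, and the list's median was 0.00. Over all genes tested, 1.01% were called higher and 0.0776% lower. ZNF579 was called in 7 of 16 alternative settings and was lost in the fit of the 4 libraries alone, with GC and length offsets, with DESeq2 and with library size alone, and ZNF664 was lost with those offsets and with library size alone. Leaving out any one of the 4 libraries ended the edgeR call of each lower gene named here, and DESeq2 called none of those it gave an adjusted p.

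Transcription of the enzymes and of the best known PRMT5 substrates did not pass the test. Of 12 arginine methyltransferases and cofactors of PRMT5 tested, none was called, 11 lay below 0, and the median was -0.11. Among all genes tested 52% lay above 0, and the median was 0.01. PRMT5 had 13.5 and 14.7 CPM with GSK591 and 17.2 and 16.96 with MS023, with untreated cells at 13.7 and 13.8, and the difference of -0.28 ± 0.16 was not significant (edgeR adjusted p 0.60). PRMT1 had 96.1 and 91.3 CPM against 93.2 and 99.1 (-0.03 ± 0.09), and CARM1 had 16.6 and 14.1 against 16.5 and 16.96 (-0.12 ± 0.15). PRMT6 was below the filter on low counts. COPRS, which recruits PRMT5 to histones, was the member above 0, with 21.6 and 15.5 CPM against 10.3 and 14.9 (0.59 ± 0.19, edgeR adjusted p 0.18). SNRPB, an Sm protein methylated by PRMT5, had 31.1 and 29.4 CPM against 29.6 and 33.0 (-0.04 ± 0.12), and none of 8 Sm genes was called. PRMT1, CARM1, PRMT5 and SNRPB all overlap another annotated gene.

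No member was called in the lists of pause release and P-TEFb (25 genes, median 0.07), RGG-motif RNA-binding proteins (30 genes, 0.09), SR splicing factors (14 genes, 0.12), nuclear long noncoding RNAs (16 genes, 0.12) or snoRNA host genes (24 genes, -0.03). CDK9, the kinase of P-TEFb, had 48.8 and 46.4 CPM against 37.7 and 39.9 (0.30 ± 0.11, edgeR adjusted p 0.28), with groups that did not overlap. None was called in ribosome assembly and RNA polymerase I (31 genes, -0.01), cytosolic ribosomal proteins (86 genes, -0.04), replication-dependent histones (56 genes, 0.00), DNA replication (39 genes, 0.01), mitosis (31 genes, 0.01), cholesterol synthesis (26 genes, 0.01), cytokines and NF-kappa-B feedback (26 genes, 0.02), fuel metabolism (25 genes, 0.02) or the MYC network (13 genes, 0.06). MYC itself had 125 and 141 CPM with GSK591 and 139 and 120 with MS023. The standard error at MYC was 0.10 on the log2 scale.

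**Figure D4:**
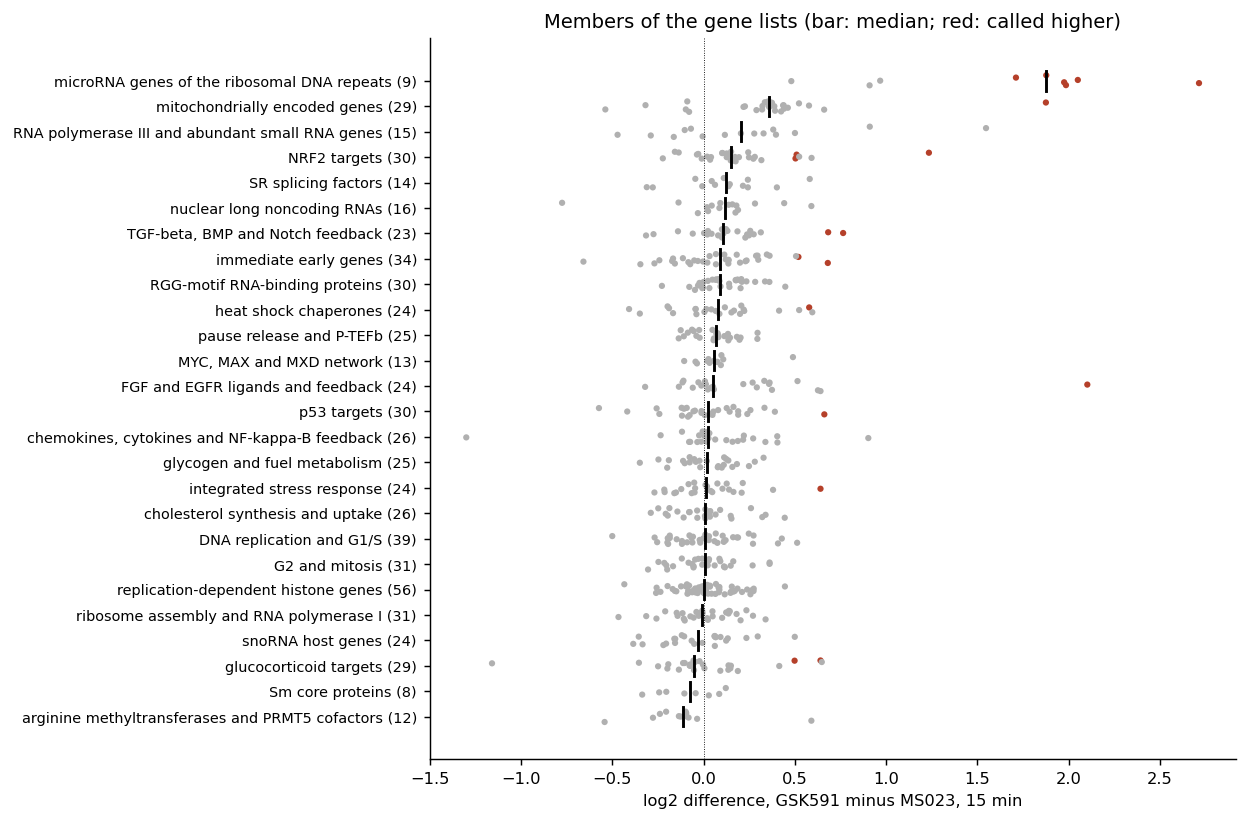
Log2 difference of each tested member of 26 gene lists (horizontal axis, GSK591 minus MS023 at 15 min), with the number of members in brackets, the median as a black bar and called genes in red. The list of microRNA genes of the ribosomal DNA has its median at 1.88, and those of the other lists lie between -0.11 and 0.36.

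Set beside untreated cells, the genes called between the inhibitors mostly had an intermediate untreated level. Genes chosen for a gap between the inhibitors tend to have other groups inside it, so nothing is read from that position. Of the 222, the untreated mean lay between the inhibitor means at 203 genes, below both at 18 and above both at 1, and it was nearer to MS023 at 170. Their median log2 difference from untreated cells was 0.49 with GSK591 and -0.24 with MS023, and 52 and 4 of them were called against untreated cells. Over all genes 0.297% were called higher with GSK591 than in untreated cells, and 0.0822% higher and 0.1% lower with MS023. These are contrasts that share their untreated libraries with each other and their inhibitor libraries with the main comparison. The choice of genes therefore favours these medians and calls as well. Averaged over the 222 genes, the level relative to untreated cells was 0.67 and 0.45 in the GSK591 libraries and -0.45 and -0.08 in the MS023 libraries. For the 17 genes called lower the medians were -0.07 with GSK591 and 0.56 with MS023.

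The same genes were then followed in the Dex and 3 h libraries, which are not part of the contrast that called them. With Dex added for 15 min, the mean level of the 222 genes was 0.68 and 0.53 beside GSK591 and 0.74 and 0.85 beside MS023, and after 3 h it was 0.87 and 0.96 with GSK591 and 0.97 and 0.88 with MS023. In these groups the libraries of both inhibitors lay above untreated cells. The low values of MS023 at 15 min without Dex are set by how the genes were chosen, and nothing is read from them. The median difference between the inhibitors at the 222 genes, 0.73 at 15 min, was -0.18 with Dex and -0.02 at 3 h, and 30 and 98 of the 222 lay above 0 (13.5% and 44.1%, against 49.5% and 50.5% of all genes tested). Between the inhibitors edgeR called 0 genes in either of these settings, where 1659 (7.57%) and 1319 genes (6.02%) had an unadjusted p under 0.05 and the smallest adjusted p was 0.11 and 0.08. The replicates of GSK591 with Dex were less alike than those of any other group (chi-square divided by degrees of freedom 13.4). Replicate 2 of that group had 58% mitochondrial counts and 30525 genes detected, against 48.2% and 31860 in replicate 1. The part of that library in the values with Dex was not tested.

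**Figure D5:**
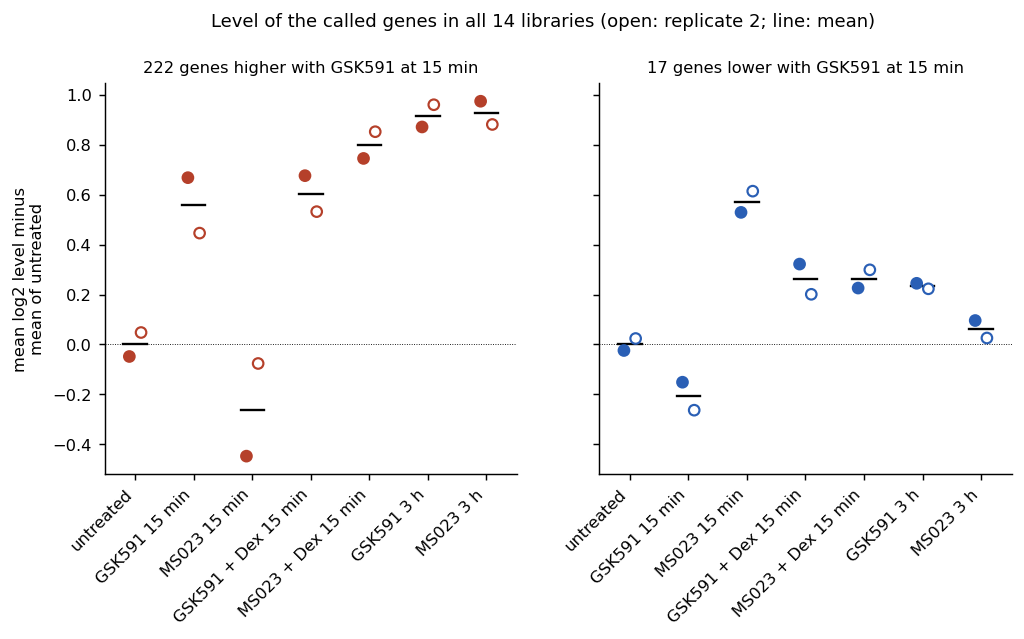
Mean log2 level of the 222 genes called higher (left) and the 17 called lower (right) with GSK591 at 15 min, relative to the mean of untreated cells (vertical axis), in each of the 14 libraries (filled points replicate 1, open points replicate 2, bars the mean). The positions of GSK591 and MS023 at 15 min are set by the choice of genes; in the left panel the Dex and 3 h libraries lie between 0.53 and 0.97.

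The difference between the inhibitors also varied between settings, with numbers of calls that rested on single 15 min libraries without Dex. Its value at 15 min differed from that beside Dex at 252 genes (1.15% of 21910 tested by edgeR's interaction contrast), 234 higher (1.07%) and 18 lower (0.0822%) at 15 min without Dex. It differed from that at 3 h at 123 genes (0.561%), 103 higher (0.47%) and 20 lower (0.0913%). These comparisons share no library on their 2 sides. Libraries with Dex or of 3 h were not left out in turn, so how far the calls rest on them was not tested. With scaling by library size alone, the 3 h contrast had 5 genes higher and 21 lower, and the median of all genes moved from 0.02 to -0.19, so that split depends on the scaling. Without replicate 1 of MS023 at 15 min, 8 and 1 genes were called in the 2 contrasts, and without replicate 1 of GSK591 31 and 16. KLF15 had a difference of 1.36 at 15 min, -0.43 with Dex and 0.24 at 3 h, and the first pair differed by 1.79 (edgeR adjusted p 0.00011). HNRNPAB had 0.75, -0.50 and -0.09, and SRXN1 1.23, -0.30 and -0.30, with edgeR adjusted p of 1.5e-05 and 0.00027 for the contrast with Dex. SMAD7 had 0.68, -0.24 and -0.26, and differed from both other settings (edgeR adjusted p 0.00085 and 0.0012). KLF15, HNRNPAB, SRXN1 and SMAD7 were named for their difference at 15 min, which is part of each interaction contrast. Their p-values here are favoured by that choice.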

How the data were processed

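PRO-seq libraries of A549 cells were counted per gene by the authors, and the deposited table holds whole-number read counts for 58780 genes in 14 libraries. Per the submitters' processing notes, featureCounts 2.0.1 of Subread, DESeq2 and the build hg38 were used. The aligner, the counting feature and the strand setting are not given in the sources used here. The authors' tables against control were not used. All gene identifiers matched GENCODE release 29, which also named the 22731 genes with no symbol in the table.

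Counts were tested with edgeR 4.0.16 (R 4.3.3, limma 3.58.1) by the quasi-likelihood test after TMM scaling and filterByExpr, in 1 fit of 14 libraries and 7 groups with 7 residual degrees of freedom. A gene was called at an adjusted p (Benjamini-Hochberg, all 21910 genes tested) under 0.05. CPM values use the TMM factors. Differences are relative to the bulk of genes, as no spike-in entered the scaling. Chi-square divided by degrees of freedom between replicates was 2.85 for GSK591 and 3.84 for MS023, above sampling noise. For GSK591 with Dex it was 13.4, the largest of the 7 groups. The functions were tested on simulated data.

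Among called genes with at least 2 CPM and groups that do not overlap, the 12 largest differences higher and the 8 lower were named, with the 8 of smallest p at 20 CPM or more, up to 4 called members per list, and PRMT5, PRMT1, CARM1, PRMT6 and SNRPB. Per interaction, the 3 highest and the 3 lowest called genes at 2 CPM or more were named. Further genes given as examples were chosen after their values were seen. The members and lists were chosen with earlier results of these data known. Alternatives were DESeq2 1.42.0, other scalings and filters, equal depth, GC and length offsets, the 4 libraries alone, and a replicate block. In further fits each of the 4 libraries compared was left out in turn.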

Additional observations from a re-analysis of the deposited data

Results flagged for a closer look

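The difference between GSK591 and MS023 at 15 min differed from the same difference with Dex at 252 genes and from that at 3 h at 123 genes by edgeR's interaction contrast, in which no library appears on both sides. The largest positive difference of differences against the Dex setting was at MIR6724-1 (3.34 on the log2 scale), followed by its copies MIR6724-4 (2.91) and MIR6724-2 (2.90). MIR6724-1 had 10.4 and 4.65 CPM with GSK591 and 0.973 and 1.35 with MS023 at 15 min, but 14.8 and 13.5 with GSK591 and Dex and 17.6 and 26.03 with MS023 and Dex. Untreated cells had 1.18 and 2.52 CPM, and the MS023 libraries at 15 min were the only treated ones not above both. Against 3 h, MIR6724-1 differed by 2.79, with 21.8 and 27.0 CPM for GSK591 and 22.1 and 29.5 for MS023 at that time.

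The most negative values against the Dex setting were at TXNDC16 (-2.40), which encodes a thioredoxin-domain protein, LOC107987091 (-2.03) and AL121949.2 (-1.69). TXNDC16 had 0.353 and 2.15 CPM with GSK591 and 2.70 and 3.15 with MS023 at 15 min, with GSK591 replicate 1 far below the others. Against 3 h, the other named genes were AL133346.1 (2.86) and AL158152.2 (2.28) above 0, and AL121772.1 (-2.33), AC120114.1 (-1.81) and AL160291.1 (-1.81) below 0. AL121772.1 had opposite orders at the 2 times, with 1.53 and 2.62 CPM for GSK591 against 3.46 and 3.603 for MS023 at 15 min, and 3.06 and 3.14 against 1.09 and 0.970 at 3 h. All of these genes had low levels in the MS023 libraries at 15 min, from 0.216 CPM at AL133346.1 to 6.15 CPM at LOC107987091.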

How the results depend on the processing

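The 239 calls between the inhibitors at 15 min ranged from 0 to 288 when 1 replicate was left out, and were 29 with library size alone, 148 at equal depth and 83 with DESeq2, which gave no adjusted p at 9345 genes. Median-of-ratios size factors, the other filters, the 4 libraries alone, the leaving out of mitochondrial or ribosomal DNA genes (the latter added after seeing the data) and GC and length offsets gave 191 to 293 genes. The 252 genes of the contrast with the Dex setting became 69 with library size alone, 134 at equal depth, 78 with DESeq2 and 8 to 339 with 1 replicate left out. The 123 genes of the contrast with 3 h became 26, 68, 36 and 1 to 192 in the same order, and 206 with no filter on low counts. The cause of these changes was not tested; equal depth and left-out replicates hold fewer reads or libraries. Libraries of the same replicate number shared little deviation (correlation of deviations between the groups -0.03, from -0.08 to 0.15 over 21 pairs of groups). That does not show whether samples were paired. The replicate block gave 248, 257 and 147 genes. PRMT1 ranged from -0.079 to 0.009 with 1 replicate left out, was 0.003 and 0.009 without replicate 2 of GSK591 and of MS023, and 0.006 with GC and length offsets, with or without the block, and SNRPB ranged from -0.124 to 0.032 (without MS023 replicate 2), and was 0.009 and 0.007 with those offsets; neither was called. Depth limits low genes most.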
